A study of Mus musculus with 9 samples.

Results

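The genes described here are Csf2, Lif, Csf1, Il6, Tnf and Socs3, a group of secreted cytokines and a feedback inhibitor of cytokine signalling, in a mouse liver cell line exposed to acetaminophen or to its regioisomer. They were taken from the expression table by the platform's gene symbols, which gave 12 probe sets for 6 of 7 genes asked for, out of 22690 probe sets and 12393 named genes. For Gdf15, the remaining gene, no probe set was matched by symbol, and it is not analysed here. The genes were chosen by their log2 values and same-time differences on these same arrays, so all values of the 6 genes are given as a description, with no test.

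RNA came from TAMH cells, a hepatocyte line derived from mice that carry a transgene for TGF-alpha, so an autocrine growth signal is common to every group, controls included. The labels give liver as the tissue and C57BL/6 as the strain. Cells at confluence received acetaminophen (N-acetyl-para-aminophenol, APAP) at 2 mM, the regioisomer AMAP (hydroxyl group in the meta position of the ring) at 2 mM, or control culture medium for 2, 6 or 24 h, in 2 dishes per treatment. With 1 Affymetrix mouse 430A_2 array per treatment and time, there are 9 arrays in all. No group has a replicate, so a difference between 2 arrays has no replicate check, and it is given as a log2 difference without a p. A single cell line was used, and in bulk RNA fewer cells carrying a message and less message per cell cannot be told apart.

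Csf2 encodes granulocyte-macrophage colony-stimulating factor (GM-CSF) and Csf1 macrophage colony-stimulating factor, which support the survival and growth of macrophages and their precursors. Lif and Il6 encode cytokines of a family that signals through the shared receptor chain gp130 (Il6st), the kinases of the JAK family and the transcription factor STAT3; in liver this pathway drives the acute-phase response. Socs3 is induced by STAT3 and blocks the same receptor, closing a feedback loop. Tnf encodes tumour necrosis factor, which acts through NF-kB. Messages of Csf2, Lif, Il6 and Tnf are short-lived and carry AU-rich elements that bind decay factors, so their levels can change within hours.

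The stretches before the transcription start are shown for the pair of cytokines that stood highest above control at 2 h, for Il6, which read near the bottom of the scale, and for the feedback gene Socs3. They are the 250 bases before the transcript start that the RefSeq promoter table gives for each gene in GRCm38.p6, written 5′ to 3′ on the strand of the gene. For Socs3 that start lies inside the listed extent of the gene, chr11:117966079-117970336, so its stretch is upstream of that start but not of the whole gene; for the other genes the stretch adjoins the end of the gene. Capitals mark matches to the motifs named after them.
Csf2 (chr11:54249900-54250149, minus strand): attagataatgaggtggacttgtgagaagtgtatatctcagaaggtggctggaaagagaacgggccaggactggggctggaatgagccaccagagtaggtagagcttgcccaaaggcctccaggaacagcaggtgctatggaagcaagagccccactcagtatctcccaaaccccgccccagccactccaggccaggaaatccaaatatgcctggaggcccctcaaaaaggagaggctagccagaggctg
Lif (chr11:4257318-4257567, plus strand): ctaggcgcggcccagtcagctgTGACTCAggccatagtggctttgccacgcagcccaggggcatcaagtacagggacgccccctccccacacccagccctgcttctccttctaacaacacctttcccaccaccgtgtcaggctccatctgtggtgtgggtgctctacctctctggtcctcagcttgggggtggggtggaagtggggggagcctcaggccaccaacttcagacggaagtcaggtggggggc
Il6 (chr5:30012864-30013113, plus strand): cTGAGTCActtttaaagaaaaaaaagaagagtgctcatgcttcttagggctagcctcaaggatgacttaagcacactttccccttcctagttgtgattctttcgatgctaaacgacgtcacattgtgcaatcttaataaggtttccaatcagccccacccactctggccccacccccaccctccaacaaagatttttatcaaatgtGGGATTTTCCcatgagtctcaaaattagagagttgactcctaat
Socs3 (chr11:117969367-117969616, minus strand): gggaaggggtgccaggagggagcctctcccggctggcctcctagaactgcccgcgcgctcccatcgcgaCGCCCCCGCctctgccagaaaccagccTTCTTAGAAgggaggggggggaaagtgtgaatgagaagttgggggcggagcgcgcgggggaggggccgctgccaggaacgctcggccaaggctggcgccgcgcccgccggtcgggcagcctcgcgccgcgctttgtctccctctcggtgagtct

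Matches were sought on both strands for the AP-1 motif TGANTCA, the CRE motif TGACGTCA, the ATF4 and CHOP motif TGATGCAA, the kappaB motif of NF-kB, the STAT motif TTCNNNGAA, the Egr motif GCGNGGGCG and the TATA box TATAAA. Lif held the AP-1 motif from -228 to -222 relative to the table's start. Il6 held the AP-1 motif from -249 to -243 and the kappaB motif from -44 to -35. Socs3 held the STAT motif from -154 to -146 and the Egr motif from -181 to -173, counted from its start in the table and thus within the gene's listed extent. In the Csf2 window none of these letters were matched, which says nothing of the factors. Csf1 held the kappaB motif from -154 to -145 and Tnf the TATA box from -29 to -24. Of 32851 RefSeq promoters of the same length, 6.75% held the AP-1 motif, 3.9% the kappaB motif, 7.02% the STAT motif, 4.7% the Egr motif and 12.4% the TATA box. The CRE motif was in 1.55% and the ATF4 and CHOP motif in 0.791%. The matches are descriptions of the sequence, and none overlapped another.

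The APAP arrays of 6 and 24 h and the AMAP array of 24 h stood apart from the other 6. For dap, a bacterial control transcript, the middle relative to the 3′ probe set read -1.94 to -1.58 log2 on these 3 arrays and -0.60 to -0.44 on the others, and their lower quartile of all values was 3.82 to 3.92 against 3.50 to 3.63. Differences at 2 h involve none of these 3 arrays. Those of AMAP against control at 6 h do not either, but all other treatment comparisons at 6 and 24 h do. All 7 hepatocyte markers on the array, among them Alb and Hnf4a, were above the median of all values, 5.66 log2, on every array. Of the macrophage markers 7 of 8 lay below that median on every array, including Adgre1 (2.96 to 3.74), Ptprc (2.50 to 3.14) and Itgam (2.83 to 3.19). Their mean level was 4.40 to 4.50 in control, 4.42 to 4.67 in APAP and 4.33 to 4.53 in AMAP. The exception was Cd14, at 9.91 to 10.36. Below it on every array were also 5 of 6 lymphocyte markers, 6 of 7 fibroblast markers and 5 of 5 endothelial markers; Cd3e reached it on 2 arrays and Des on 3.

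Csf2 was higher with either compound than in the control of the same time at 2 h and at 24 h, but not at 6 h. At 2 h it read 6.22 log2 in control, 8.46 in APAP and 9.18 in AMAP. At 6 h the values were 8.17 in control, 7.23 in APAP and 8.14 in AMAP, and at 24 h they were 7.27, 8.89 and 8.58. The lowest of the 9 values is thus the 2 h control and the highest AMAP at 2 h. APAP differed from control by 2.25 log2 at 2 h, 4.75-fold, by -0.94 at 6 h and by 1.61 at 24 h. AMAP differed from control by 2.96 at 2 h, 7.79-fold, by -0.03 at 6 h and by 1.31 at 24 h. The negative difference of APAP at 6 h rests on an array that stands apart by the spike-in ratio. So do the differences of both compounds from control at 24 h. The part of that in these results was not tested.

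The controls of Csf2 were not level over time. From 2 to 6 h the control value was higher by 1.95 log2, 3.87-fold, and from 2 to 24 h by 1.06, while 24 h against 6 h gave -0.90. A 2-fold difference between controls was uncommon, at 0.541% of the 12393 genes for 6 against 2 h, 0.476% for 24 against 2 h and 0.662% for 24 against 6 h, and Csf2 alone of the 6 genes reached it, in the first and second of these comparisons. Set against the highest control of any time, 8.17 at 6 h, AMAP at 2 h was 1.01 log2 higher, APAP at 24 h 0.72, AMAP at 24 h 0.41 and APAP at 2 h 0.29. In all, 4 of 6 treated arrays were above every control, and both treated arrays of 6 h lay within the range of the controls. The share of all genes with such a count is not given here. The residual SD of Csf2 around additive effects of treatment and time was 0.96 log2 with 4 degrees of freedom, the widest of the 12 probe sets.

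Lif, the leukemia inhibitory factor, was higher than control with AMAP at 2 h and with both compounds at 24 h. Its brighter probe set, 1421207_at, read 6.12 in control, 7.05 in APAP and 8.36 in AMAP at 2 h. At 6 h it read 6.78, 7.15 and 6.89, and at 24 h 6.66, 7.96 and 8.29. The 3 controls spanned 0.66 log2, and all 6 treated arrays were above the highest of them, by 0.11 (AMAP at 6 h) to 1.58 (AMAP at 2 h). On the probe sets of Csf1, Il6, Tnf and Socs3 the same count was 2 to 4 of 6. The share of all genes with such counts is not given here, so nothing is read from them. AMAP differed from control by 2.25 at 2 h, 4.74-fold, by 0.11 at 6 h and by 1.64 at 24 h. The differences of APAP were 0.93, 0.37 and 1.31. Lif in AMAP therefore had its lowest value at 6 h between high values at 2 and 24 h, whereas in APAP the 24 h value was the high one.

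The second Lif probe set, 1450160_at, lay below the median of all values on 6 of 9 arrays, and RMA narrows differences at such levels. It read 4.86, 5.32 and 5.90 in control, APAP and AMAP at 2 h, then 5.04, 5.62 and 4.75 at 6 h, and 4.74, 6.03 and 6.51 at 24 h. Its order of treatments was that of the brighter probe set at 2 and at 24 h, with AMAP highest. For AMAP against control it differed by 1.04 at 2 h and 1.77 at 24 h, and at 6 h by -0.29, where the brighter probe set had 0.11. For APAP the differences were 0.47, 0.58 and 1.29. Both probe sets were past 2-fold in AMAP at 2 h and in either compound at 24 h. The treated arrays of 24 h stand apart by the spike-in ratio, and low values as a whole were higher on them. The part of that in the 24 h differences of Lif was not tested.

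**Figure D1:**
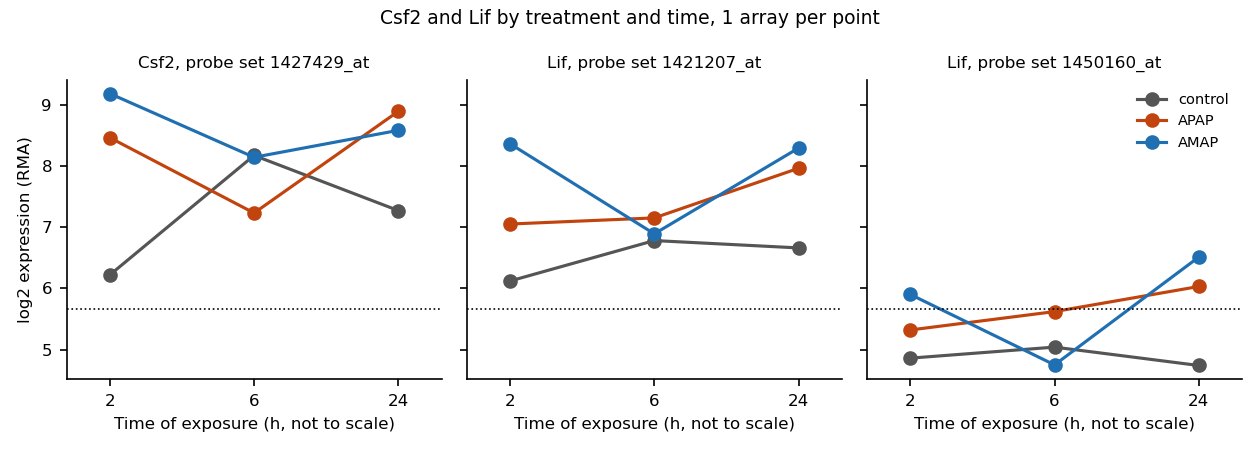
Log2 expression of Csf2 (1 probe set) and Lif (2 probe sets) against time of exposure in control, APAP and AMAP; each point is 1 array, lines join the arrays of a treatment, and the dotted line is the median of all values, 5.66. The Csf2 control is lowest at 2 h (6.22) and highest at 6 h (8.17), where the treated arrays are not above it. Lif is highest in AMAP at 2 h (8.36) on the brighter probe set and in AMAP at 24 h (6.51) on the dimmer one.

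Csf1 was higher in APAP at 2 h and close to control in AMAP, on each of its 4 probe sets. The brightest, 1460220_a_at, read 9.19 in control, 9.96 in APAP and 9.23 in AMAP at 2 h. It read 9.46, 9.26 and 9.58 at 6 h and 9.42, 9.35 and 9.56 at 24 h, so that APAP at 2 h was the highest of the 9 values. Over the 4 probe sets the difference of APAP from control at 2 h was 0.77 to 1.15 log2, and that of AMAP 0.04 to 0.25. APAP exceeded AMAP at 2 h by 0.69 to 0.89. Only 1425155_x_at was past 2-fold, at 1.15; its suffix marks probes that can also match other transcripts. At 6 h the probe sets went apart, from -0.19 to 0.71 for APAP against control and from -0.17 to 0.16 for AMAP. At 24 h they ranged from -0.12 to 0.43 in APAP and from -0.12 to 0.60 in AMAP. The differences of APAP at 6 h and of both compounds at 24 h rest on arrays that stand apart by the spike-in ratio. The chosen probe set had a residual SD of 0.32 log2, and its controls spanned 0.27.

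Il6 and Tnf lay below the median of all values on all 9 arrays, each by its single probe set. Il6 read 2.62, 2.49 and 2.82 in control, APAP and AMAP at 2 h, 2.82, 3.20 and 2.64 at 6 h, and 2.79, 3.19 and 3.13 at 24 h. Tnf read 5.17, 5.34 and 5.17 at 2 h, 5.20, 5.39 and 5.13 at 6 h, and 5.01, 5.03 and 5.50 at 24 h. The whole range was 0.72 log2 for Il6 and 0.50 for Tnf, with no difference near 2-fold. For Il6 the 3 highest values, 3.13 to 3.20, were those of the arrays that stand apart by the spike-in ratio, where low values as a whole were higher; the part of that in the result was not tested. At levels this low RMA narrows differences, so these values do not show that none existed.

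Socs3, the inhibitor that STAT3 induces, had a common direction against control over its 3 probe sets at 2 h, but not at 6 or 24 h. The brightest, 1416576_at, read 6.26 in control, 6.75 in APAP and 6.75 in AMAP at 2 h. It read 7.17, 7.33 and 6.36 at 6 h and 6.68, 7.17 and 7.82 at 24 h, with the controls spanning 0.92 log2. At 2 h the 3 probe sets were 0.24 to 0.55 higher in APAP than in control and 0.04 to 0.49 higher in AMAP. At 6 h AMAP against control gave -0.82 on 1416576_at and 0.65 on 1455899_x_at. At 24 h the brightest probe set was 1.14 higher in AMAP, past 2-fold, while 1455899_x_at gave -0.10 and 1456212_x_at 0.26. For APAP at 24 h the values were 0.49, -0.18 and -0.14. The pair with the x suffix read 5.54 to 6.85 and 5.61 to 6.15 over the 9 arrays, each below the median on 1 of them, APAP at 6 h. Between the compounds at 6 h, APAP minus AMAP was 0.97 on the brightest probe set and -1.30 on 1455899_x_at, past 2-fold the other way. At 24 h all 3 probe sets were lower in APAP than in AMAP, with differences of -0.65 to -0.08. The direction of Socs3 at 6 h thus depended on the probe set read. The arrays of APAP at 6 h and of both compounds at 24 h stand apart by the spike-in ratio, and the part of that was not tested.

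**Figure D2:**
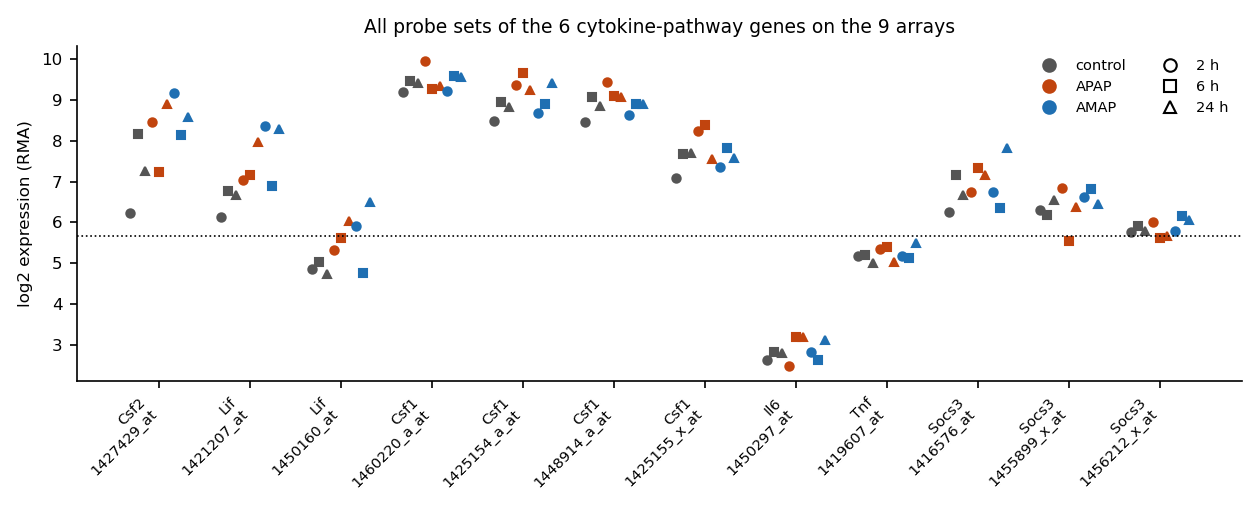
Log2 expression of the 12 probe sets of the 6 genes on the 9 arrays, coloured by treatment and with the marker giving the time; the dotted line is the median of all values, 5.66. Il6 and Tnf lie below the line on every array, the dimmer Lif probe set on 6 of 9, and the Csf2 points spread most, over 2.96 log2.

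**Figure D3:**
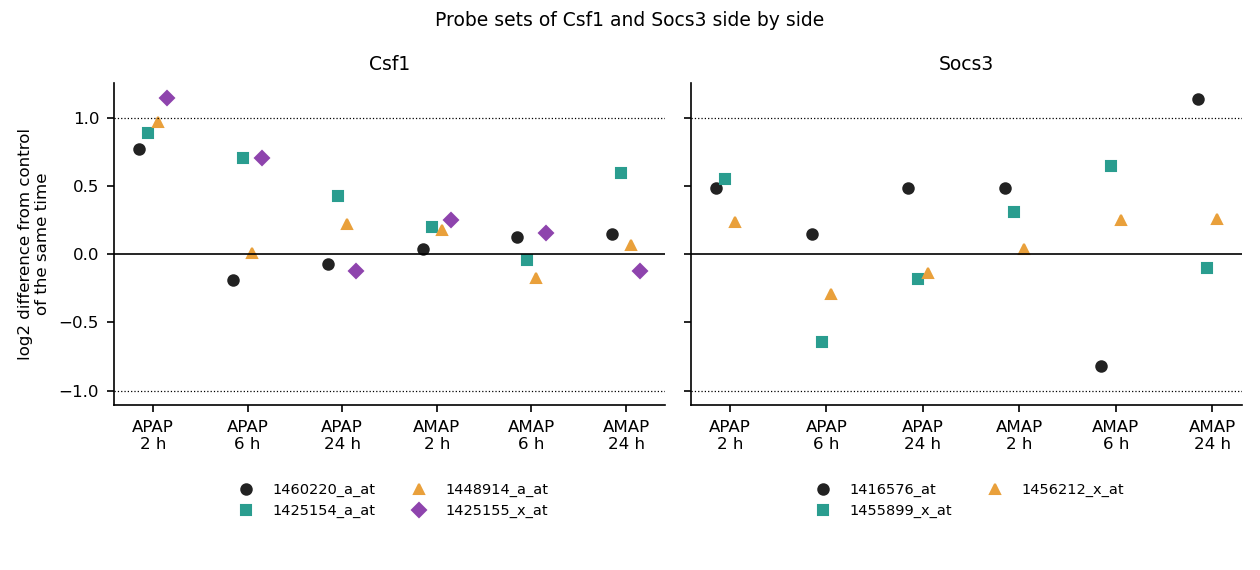
Log2 difference from the control of the same time for the 4 probe sets of Csf1 and the 3 of Socs3, in APAP and AMAP at 2, 6 and 24 h; dotted lines mark 2-fold. The Csf1 points of APAP at 2 h lie together between 0.77 and 1.15, whereas those of Socs3 in AMAP at 6 h run from -0.82 to 0.65.

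A gene was called where the 2 arrays of a comparison differed at least 2-fold and the higher one reached the median of all values, with the brightest probe set standing for a gene. At 2 h Csf2 and Lif were called in AMAP against control, where 0.992% of all 12393 genes were, and Csf2 in APAP against control, where 1.13% were. At 6 h none of the 6 genes was called in APAP against control (3.88% of all genes), in AMAP against control (0.726%) or between the compounds (6.75%). At 24 h Csf2 and Lif were called in APAP against control (4.08% of all genes) and Csf2, Lif and Socs3 in AMAP against control (1.89%). With the probe sets of a gene averaged, Socs3 was no longer called there, at 0.43 in place of 1.14. Every called difference from control was an increase. Of all genes called at 2 h, 63 of 140 were higher in APAP and 93 of 123 in AMAP. At 24 h these numbers were 239 of 506 and 51 of 234. The genes were chosen on these contrasts, so nothing is read from the counts against these shares, and the comparisons at a time share their control array.

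Between the regioisomers at the same dose, Lif was the gene farthest apart at 2 h, at -1.32 log2 for APAP minus AMAP, 2.49-fold, and the only one called (0.968% of all genes). On its dimmer probe set the value was -0.58. Csf2 differed by -0.71 at 2 h, -0.91 at 6 h and 0.30 at 24 h, so that its higher value was in AMAP at 2 and 6 h. Csf1 was higher in APAP than in AMAP at 2 h, by 0.74 on its brightest probe set, and Tnf, below the median, by 0.17. Socs3 did not differ at 2 h on that probe set, at 0.00, and read 0.97 at 6 h and -0.65 at 24 h. At 24 h none of the genes was called between the compounds (1.88% of all genes), and Lif differed by -0.33. With 1 array each, no interval can be given for these differences. Those at 6 and 24 h involve arrays that stand apart by the spike-in ratio.

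The genes around these cytokines were read from 8 lists, which hold 99 genes, 92 of them on the array and 66 expressed, that is with a mean log2 value of at least 5.67, the middle of all probe-set means. A fit with limma of treatment and time over all 9 arrays asked which expressed genes differed in the same way at the 3 times. After Benjamini-Hochberg adjustment over 6700 genes it called 0% in APAP against control, 0% in AMAP against control and 0% between the compounds, so 0 of 66 list genes passed in either direction. At an unadjusted p under 0.05 it held 6, 1 and 5 of the 66, with 514, 30 and 285 of the 6700. The 6 for APAP against control were Timp1, Tgfb1, Lcn2, Icam1, Hp and Il6st. Their limma adjusted p was 0.633 in each case. With 1 array per treatment and time, the fit counted a treatment effect that changed with time as error. Having 0 genes pass therefore does not show that no gene differed at a single time. What follows gives values at single times, without a test. Values of APAP at 6 h and of both compounds at 24 h come from arrays that stand apart by the spike-in ratio. At 2-fold, 481 genes of the whole array were called in APAP against control at 6 h, 119 higher and 362 lower.

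Among ligands, 4 of 16 related cytokines on the array were expressed, while Il3, Csf3, Il1a and Il11 were each below the median on all 9 arrays. Tgfb1, a growth-inhibitory cytokine of hepatocytes, read 5.29 in control, 6.29 in APAP and 6.09 in AMAP at 2 h. Tgfb2 differed from control by 0.45 in APAP and 0.51 in AMAP at 2 h, and by -1.01 in APAP at 6 h. Ltb, a TNF family ligand, read 7.67 in control and 6.41 in AMAP at 2 h, and was 1.48 above control in AMAP at 6 h. Il1b reached the median only in APAP at 6 h, with 5.72 against 4.65 in AMAP. At 2 h the 4 expressed ligands had a median difference of 0.30 in APAP and 0.33 in AMAP, where all 6700 expressed genes had -0.014 and -0.007.

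The receptor chains of these cytokines differed by gene. Csf2ra (3.71 to 4.51) and Csf2rb (2.65 to 3.31), the receptor of GM-CSF, and Csf1r (4.46 to 5.17), the receptor of Csf1, were below the median on all 9 arrays. Lifr and Il6st, which together form the receptor of Lif, were above it on all 9. Lifr read 8.62 in control, 7.92 in APAP and 8.05 in AMAP at 2 h, a difference of -0.70 and -0.57. Il6st read 10.12, 9.95 and 9.95 at 2 h, and 10.23, 8.88 and 10.04 at 6 h, where APAP differed by -1.35. Osmr, the receptor chain for oncostatin M, differed by -1.16 in APAP at 6 h, and Tnfrsf1b, a TNF receptor, by 0.70. Over the 6 expressed receptors the median difference at 2 h was -0.23 in APAP and -0.06 in AMAP, and none was 2-fold apart.

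The 9 expressed JAK-STAT transducers had medians of -0.28 in APAP and -0.09 in AMAP at 2 h, and none was 2-fold apart from control at any time. Stat2 and Stat5b, transcription factors of the family, were each lower at 2 h with both compounds, by 0.44 to 0.49 log2. The kinase Tyk2 was 0.93 higher in APAP than in AMAP at 24 h, and the dim phosphatase gene Ptpn6 reached the median on 2 arrays. Among the other inhibitors, Socs2 read 5.70, 6.13 and 6.85 in control, APAP and AMAP at 2 h, a difference of 1.15 in AMAP. At 24 h it read 7.34, 6.06 and 7.23, so that APAP was lower by 1.28 log2. Cish, which STAT5 induces, read 4.63, 4.99 and 5.62 at 2 h, all below the median, and 4.92, 5.83 and 6.11 at 24 h, 1.19 above control in AMAP. Socs4 was 1.14 higher in APAP than in AMAP at 6 h, and Socs6 differed from control by -1.25 in APAP at that time. The 8 expressed inhibitors had medians of -0.08 in APAP and 0.16 in AMAP at 2 h.

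Genes that answer to STAT3 in hepatocytes did not share a direction. Of 16 expressed, 10 were higher and 6 lower in APAP at 2 h, with a median of 0.17, and in AMAP 8 were higher and 8 lower (median 0.01). Over all 6700 expressed genes, 45.3% were higher in APAP and 45.1% in AMAP at 2 h. Junb, an AP-1 member, was 1.92 higher in AMAP at 2 h, while the acute-phase genes Crp in AMAP (-1.67) and Lbp in APAP (-1.56) were lower. Lcn2, also an acute-phase gene, was higher at 2 h, by 1.48 in APAP and 0.64 in AMAP. Crp was 1.15 above control in AMAP at 6 h. Bcl3, a nuclear partner of NF-kB, was 1.57 higher in APAP at 6 h. Of 11 expressed NF-kB targets and feedback genes, 8 were higher in APAP and 6 in AMAP at 2 h, with medians of 0.22 and 0.20. Traf1, an adaptor of TNF receptors, was 1.46 higher in APAP at 2 h, from 5.53 to 6.99. At 6 h in APAP 4 were higher and 7 lower, with a median of -0.47. Nfkbia, the inhibitor that holds NF-kB in the cytoplasm, differed from control by 0.16 in APAP and 0.20 in AMAP at 2 h, and by -0.79 and 0.41 at 6 h. The adhesion molecule Icam1 differed by 0.28 and 0.50 at 2 h. The chemokine Cxcl1 was 2.04 lower in APAP than in AMAP at 6 h, at 6.58 and 8.62.

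The proteins that bind AU-rich messages had medians of -0.26 in APAP and 0.01 in AMAP at 2 h. Zfp36, which encodes tristetraprolin and speeds the decay of Csf2 and Tnf messages, read 7.41, 7.05 and 7.81 in control, APAP and AMAP at 2 h, and 6.85, 8.33 and 8.50 at 24 h. It was thus 1.48 and 1.65 above control at 24 h, on arrays that stand apart by the spike-in ratio. Csf2 and Lif were also higher at that time, and any link of Zfp36 to them was not tested. Hnrnpd differed by -1.35 in APAP at 24 h, Tia1 by -1.77 in APAP at 6 h and Zfp36l2 by 0.81 there. At 2 h all 5 stress-response transcription regulators were higher in AMAP (median 1.47), and 4 were lower in APAP (median -0.30). Atf3 read 6.66, 7.07 and 10.59 at 2 h, Ddit3 7.42, 6.33 and 9.14, and Egr1 9.67, 9.20 and 11.14. At 24 h the medians were 0.79 in APAP and 0.68 in AMAP. Atf3 was then 2.10 above control in APAP and 1.94 in AMAP, Egr1 1.53 and 2.19, and Ddit3 0.79 and 0.68. Nupr1 was 1.15 higher in AMAP at 2 h and lower by 2.43 in APAP at 24 h. Csf2 was above its 2 h control with both compounds, as given above, and any link of these regulators to it was not tested.

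**Figure D4:**
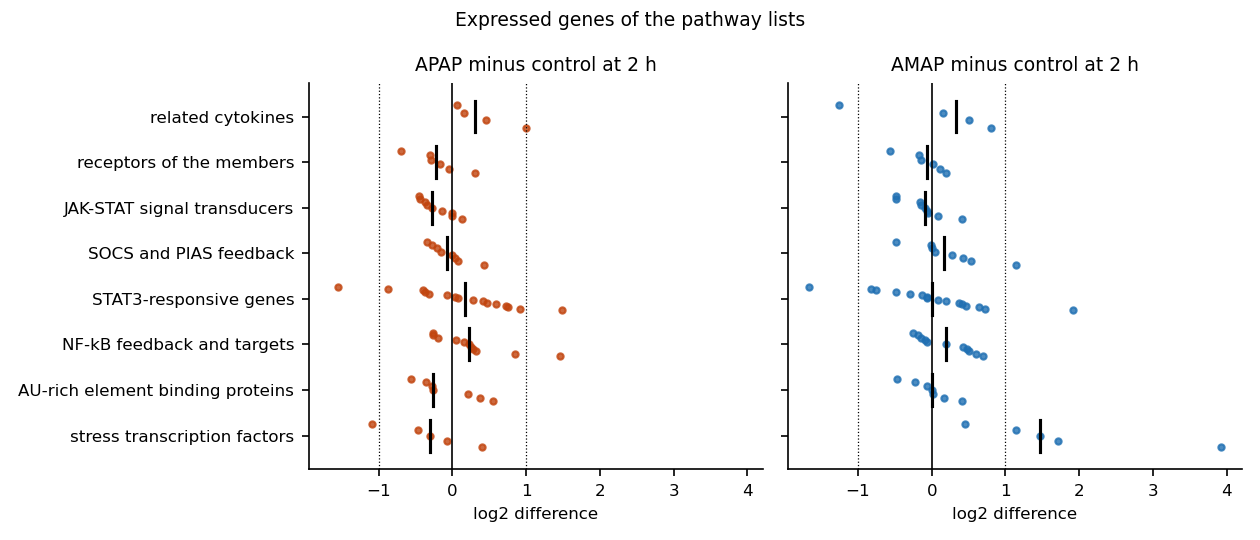
Log2 difference from control at 2 h in APAP and in AMAP for each expressed gene of the 8 lists; each point is 1 gene, black bars are list medians, and dotted lines mark 2-fold. The medians lie between -0.30 and 0.33 except for the stress-response regulators in AMAP, at 1.47.

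The genes most like these cytokines over the 9 arrays were named by Pearson's r among the 6700 expressed genes, as a description of arrays that share the cell line, platform and normalization. For Csf2 they were Hbegf, a ligand of the EGF receptor (r = 0.931), Tmem158 (0.922) and the epithelial envelope gene Sprr1a (0.888). For Lif they were Bbc3, which encodes the BH3-only protein Puma (0.943), the ubiquitin ligase gene Mdm2 (0.931) and Gadd45b (0.918). Over the 6 arrays without a low spike-in ratio the values were 0.954, 0.942 and 0.936 for Csf2 and 0.926, 0.919 and 0.898 for Lif. The genes had been picked by r over all 9 arrays, these 6 among them, so the second values are not an independent check. The range of Tmem158 over the arrays was narrow, from 6.30 to 6.86. Csf2 and Lif had an r of 0.827 with each other over 9 arrays. Hbegf was higher in both compounds at 2 h, by 1.33 in APAP and 1.79 in AMAP. Bbc3 and Mdm2 were higher in AMAP, by 1.09 and 1.42, with 0.20 and 0.10 in APAP.

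For Csf1 the most similar genes were Polr2i (0.913), U2af1 (0.903) and Stoml2 (0.880), which differed from control at 2 h by 0.54 to 0.69 in APAP and by -0.05 to 0.08 in AMAP. For Socs3 they were Mtmr7 (0.965), the ribosomal protein gene Fau (0.953) and Tln1 (0.949), whose ranges over the arrays were narrow, from 6.54 to 6.66 for Mtmr7. The r between Csf1 and Lif was -0.015, and that between Socs3 and Lif 0.611, or 0.322 over the 6 arrays. Il6 and Tnf were left out of this search because their values lie below the median.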

How the data were processed

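The deposited log2 values per probe set were made by the authors: the submitters' processing notes name RMA and the Affymetrix program Expression Console. Its version, and whether 1 normalization run held all arrays, is not given in the sources used here. Because RMA gives all arrays 1 distribution, a shift of RNA content as a whole is lost, and differences of dim probe sets shrink. Groups came from the sample titles.

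Probe sets were named from GEO's platform annotation: 20380 had 1 symbol, 691 several and 1555 no entry; 64 were control probe sets. A gene was represented by its brightest singly named probe set. Genes were called at a 2-fold difference with the higher array reaching 5.66, the median over all values. The shared fit used limma 3.58.1 in R 4.3.3 with time as a block, 4 residual degrees of freedom and an adjusted p under 0.05, and was tested on simulated data. Sequences are RefSeq's. The members and lists were chosen with earlier results of these data known. Named list genes were the up to 4 per list with the largest same-time difference among those reaching the median. Lcn2 was added beside Crp and Lbp. Similar genes were the 3 with the highest r. The number of arrays limits the precision.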

Additional observations from a re-analysis of the deposited data

Results flagged for a closer look

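Csf2 in APAP differed from control in opposite directions at different times, by 2.25 log2 at 2 h, -0.94 at 6 h and 1.61 at 24 h. Each value compares 1 array with 1 array, so the difference between times was not tested. The control of 6 h was itself 1.95 above that of 2 h.

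Socs3, on its brightest probe set, did the same in AMAP against control, at -0.82 at 6 h and 1.14 at 24 h, and in APAP minus AMAP, at 0.97 at 6 h and -0.65 at 24 h. These were not tested either. The other probe sets of Socs3 gave 0.65 and 0.25 for AMAP against control at 6 h, opposite in direction to the brightest. For APAP minus AMAP at 6 h they gave -1.30 and -0.55, also opposite to the brightest. With the probe sets averaged, APAP minus AMAP was -0.29 at 6 h and -0.37 at 24 h, in the same direction at both times.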

How the results depend on the processing

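At 1.5-fold in place of 2-fold the number of the 6 genes called became 3 in APAP against control and 3 in APAP against AMAP at 2 h. At 6 h it became 1 in APAP against control, 1 in AMAP against control and 2 in APAP against AMAP, and at 24 h 1 in APAP against AMAP. The shares of all genes past 1.5-fold are not given here, so nothing is read from these counts. When a gene's probe sets were averaged, 0 were called in APAP against AMAP at 2 h, and 2 in place of 3 in AMAP against control at 24 h. No filter on low values, cyclic loess and median centring left each count within 1.5 times. Of 135 recomputed differences of the 6 genes with averaged probe sets, cyclic loess and median centring, 125 moved by less than the residual SD of the gene and no called difference changed sign. With averaged probe sets Lif in AMAP at 2 h was 1.64 and Socs3 in AMAP at 24 h 0.43, against 2.25 and 1.14 on the brightest. Some differences that were not called did change sign. With averaged probe sets, APAP minus AMAP at 6 h went from 0.97 to -0.29 for Socs3 and from -0.32 to 0.29 for Csf1. At that time Socs3 in AMAP against control went from -0.82 to 0.03, and Csf1 in APAP against control from -0.19 to 0.31. In every setting of the shared fit, including those that leave out a time and one without the 3 arrays of low spike-in ratio, chosen after seeing the data (as was the r over the other 6 arrays), limma called 0 genes at an adjusted p under 0.05; the list genes at an unadjusted p under 0.05 numbered 0 to 10. Signal over background limits Il6, Tnf and the dimmer Lif probe set.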
